A study of Mus musculus with 4 samples.

Results

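The 464 regions described here are the open-chromatin regions that lie within 6 blocks of the distal part of mouse chromosome 11. They were taken from 110110 regions found by ATAC-seq, an assay that reads out where a transposase can reach the DNA between nucleosomes. The blocks had been picked because accessibility over them was higher in Notch2_cKO cells than in control cells in the same 4 libraries. The contrast between the genotypes is therefore given below as a description. Regions past a threshold in the fit over all regions are counted, but these counts are no test of the blocks. The blocks span chr11:66168251-68897600, chr11:70754401-72412050, chr11:88149001-88691450, chr11:89100401-90665700, chr11:103989051-105270650 and chr11:117269851-117786750 in mm10. They are numbered 1 to 6 in that order and hold 164, 66, 45, 100, 45 and 44 of the regions.

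Fibroblastic reticular cells are stromal cells that build the scaffold of lymph nodes, and their chemokines, Ccl19 among them, place T cells and dendritic cells. Notch2 is a receptor whose cleaved intracellular part acts with the DNA-binding protein RBPJ on target genes. Accessible regions mark promoters, enhancers and other sites where proteins can reach the DNA. Neighbouring sites often share a larger chromatin domain. Regions of 1 block are therefore not independent of each other.

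Each library came from 50000 sorted cells with high BP3 that carried Pdpn and lacked CD31 and CD45. The cells came from the brachial, axillary and inguinal lymph nodes of 12-week-old C57BL/6 females, with 6 animals per pool. The controls were Notch2 fl/fl littermates without Cre, and the Notch2_cKO animals carried Ccl19-Cre in addition, so both groups share the floxed allele. Deletion in this model follows the activity of the Ccl19 promoter. Each genotype had 2 pools, and each pool is 1 replicate. A higher level in pooled cells can come from more cells with an open site or from a site that is open more often in each cell. These cannot be told apart here.

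Depth differed between the libraries. Summed over 1 window per region, control replicates 1 and 2 had 23629588 and 25740366 counts, and Notch2_cKO replicates 1 and 2 had 30260067 and 12340742. Levels are given as normalized CPM, the counts scaled by library size and by loess offsets that depend on level, and differences as log2 of Notch2_cKO over control, with the standard error (SE) of the fit over all 110110 regions. The region at the Notch2 start had 55.3 and 57.5 CPM in the controls and 55.2 and 46.2 CPM in Notch2_cKO, with a log2 difference of -0.14 (SE 0.10). This level at the start does not report on a deletion elsewhere in the gene. Control replicate 2, labelled female, had 221 counts at Ddx3y, 201 at Eif2s3y, 139 at Uty and 65 at Kdm5d, which lie on the Y chromosome, and the other libraries had 0 or 1 at each. Counts of called regions are therefore also given without that library.

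Markers of the sorted and other cell types were summed in each library. The regions at 10 of 10 reticular cell genes had 463 and 466 CPM in the controls and 470 and 488 CPM in Notch2_cKO. The regions at 7 of 7 endothelial genes summed to 187 and 182 CPM in the controls and to 227 and 223 CPM in Notch2_cKO. Single genes differed: the regions of Tek, Cdh5 and Flt4 had median log2 differences of 0.69, 0.39 and 0.31. The 1 region of Lyve1 had 0.43. Those of Pecam1, Kdr and Prox1 had medians of -0.02, -0.04 and -0.16. The endothelial sum was higher in Notch2_cKO, as the blocks were, and its part in the results was not tested. The leukocyte sum, from the 4 marker genes with a region, was 31.4, 32.4, 32.1 and 28.4 CPM in control 1, control 2, Notch2_cKO 1 and Notch2_cKO 2. The skeletal muscle sum, from 6 of 7 genes with no region at Myod1, was 79.7, 83.7, 71.4 and 67.9 CPM in the same order. For mural cells, from 4 of 5 genes with no region at Mcam, it was 226, 222, 214 and 228 CPM. Median log2 differences there were -0.84 at Notch3, -0.48 at Acta2, 0.07 at Myh11 and 0.40 at Rgs5.

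The blocks hold 82 protein-coding genes, and 69 of them had at least 1 of the 464 regions at or in them. The 250 bases before the annotated start are shown for 5 of these genes, with RefSeq sequence of the GRCm38.p6 assembly. They come from the 9 open starts whose 250 bases lie outside all RefSeq genes, and they were chosen after their values were seen. Myh10, Hlf and C1qbp have the highest levels of the 9, and Pctp and Pitpnm3 the largest differences between the genotypes. Sequences run 5′ to 3′ on the strand of the gene. Capitals mark the GC box GGGCGG, the CCAAT box and the AP-1 motif TGANTCA, searched on both strands.
Myh10 (non-muscle myosin heavy chain, block 1, chr11:68691665-68691914, plus strand): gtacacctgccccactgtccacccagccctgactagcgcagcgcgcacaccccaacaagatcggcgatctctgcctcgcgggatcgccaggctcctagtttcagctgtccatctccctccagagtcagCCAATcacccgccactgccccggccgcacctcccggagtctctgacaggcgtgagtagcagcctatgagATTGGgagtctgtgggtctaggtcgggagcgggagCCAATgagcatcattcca
C1qbp (a mitochondrial matrix protein, block 2, chr11:70983027-70983276, minus strand): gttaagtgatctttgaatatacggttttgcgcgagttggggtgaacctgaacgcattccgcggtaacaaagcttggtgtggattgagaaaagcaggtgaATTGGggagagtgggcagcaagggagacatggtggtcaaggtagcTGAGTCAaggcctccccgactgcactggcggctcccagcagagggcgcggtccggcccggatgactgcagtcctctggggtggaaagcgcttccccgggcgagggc
Hlf (a PAR bZIP transcription factor, block 4, chr11:90390918-90391167, minus strand): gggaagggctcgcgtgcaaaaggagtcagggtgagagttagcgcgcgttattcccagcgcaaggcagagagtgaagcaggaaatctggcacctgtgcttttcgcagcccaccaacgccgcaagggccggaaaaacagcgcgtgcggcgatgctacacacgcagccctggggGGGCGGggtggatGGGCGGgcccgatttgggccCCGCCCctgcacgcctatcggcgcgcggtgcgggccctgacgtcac
Pitpnm3 (a membrane-associated phosphatidylinositol transfer protein, block 2, chr11:72135890-72136139, minus strand): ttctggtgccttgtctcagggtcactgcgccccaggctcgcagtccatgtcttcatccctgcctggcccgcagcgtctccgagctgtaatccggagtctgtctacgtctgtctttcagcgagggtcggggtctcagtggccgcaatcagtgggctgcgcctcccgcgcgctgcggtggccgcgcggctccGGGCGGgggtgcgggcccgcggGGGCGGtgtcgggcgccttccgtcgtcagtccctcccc
Pctp (phosphatidylcholine transfer protein, block 4, chr11:90002895-90003144, minus strand): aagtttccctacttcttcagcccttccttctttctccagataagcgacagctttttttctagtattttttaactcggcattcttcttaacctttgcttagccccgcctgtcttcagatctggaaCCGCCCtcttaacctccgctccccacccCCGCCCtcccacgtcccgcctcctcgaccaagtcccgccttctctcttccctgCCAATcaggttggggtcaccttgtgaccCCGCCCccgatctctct

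The 5 sequences hold 15, 15, 26, 28 and 12 CG dinucleotides in the order shown. Their GC contents are 62.8%, 59.2%, 67.2%, 70.8% and 54.8%. At the Myh10 start the libraries had 38.3 and 38.4 CPM in the controls and 44.2 and 35.7 CPM in Notch2_cKO, so the groups overlapped (log2 0.07, SE 0.11, and -0.04 with TMM). The C1qbp start had 20.4 and 20.9 against 28.3 and 23.7 CPM (0.35, SE 0.13), and the Hlf start had 23.0 and 23.9 against 30.0 and 25.0 CPM (0.24, SE 0.12). In both, the Notch2_cKO libraries lay above the controls by a small margin. The Pctp start had 6.43 and 6.70 CPM in the controls and 12.7 and 10.5 CPM in Notch2_cKO, with no overlap (0.84, SE 0.16). The Pitpnm3 start had 5.77 and 6.47 CPM in the controls, 11.8 CPM in Notch2_cKO 1 and 6.07 CPM in Notch2_cKO 2 (0.62, SE 0.22). There the difference lay in 1 library, since Notch2_cKO 2 fell between the controls.

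Promoter sequence was found for 63 genes of the blocks, as 73 windows, of which 39 lay over 1 of the 464 regions. The GC box was in 21 of these 39 windows (53.8%), in 7 of the other 34 (20.6%) and in 42.6% of the 21263 promoters of the table. CCAAT was in 18 of the 39 (46.2%), 8 of the 34 (23.5%) and 35.4% of all promoters. The median window over a region held 17 CG dinucleotides, against 5 in the others and 10 over all promoters. On the median, the starts that were open in these cells were thus richer in CG. The RBPJ motif GTGGGAA was in 1 of the 39 windows (2.56%), 1 of the 34 and 5.26% of all promoters, and TGANTCA was in 3 (7.69%), 4 (11.8%) and 6.13%. A match says only that these letters are in the window.

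Summed over the 464 regions, control 1 and control 2 had 2240 and 2150 CPM, and Notch2_cKO 1 and Notch2_cKO 2 had 3120 and 2900 CPM. Both Notch2_cKO libraries lay above both controls, by more than the gap within either genotype. The means were 2190 ± 63.3 and 3010 ± 151 CPM (SD, n = 2 each), a ratio of 1.37. The regions took 0.220% and 0.214% of the control libraries and 0.315% and 0.295% of the Notch2_cKO libraries. The median log2 difference over single regions was 0.59, with quartiles of 0.25 and 0.91 and extremes of -1.49 and 2.94. It was above 0 in 409 of 464 regions (88.1%). Set against the control mean, the median was 0.61 in Notch2_cKO 1 and 0.49 in Notch2_cKO 2. The median was -0.06 for control 2 over control 1 and -0.13 for Notch2_cKO 2 over Notch2_cKO 1.

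By edgeR's quasi-likelihood test at a Benjamini-Hochberg adjusted p under 0.05 over all regions, 196 of the 464 (42.2%) were called higher in Notch2_cKO and 7 (1.51%) lower. Over all 110110 regions, 12.5% were called higher and 11.2% lower. The choice of the blocks fixed this direction, so nothing is read from the comparison. When a library was left out, the share called higher over all regions moved in the same direction as the counts that follow. The count of higher regions was 124 without control replicate 2 and 125 without Notch2_cKO replicate 1. It was 153 without control replicate 1 and 225 without Notch2_cKO replicate 2. The count of lower regions was 1 without control replicate 1 and 4 without control replicate 2. Both Notch2_cKO libraries lay above both controls in 330 of the 464 regions (71.1%), against 30.4% of all regions. Both lay below in 31 (6.68%), against 29.5%.

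**Figure D1:**
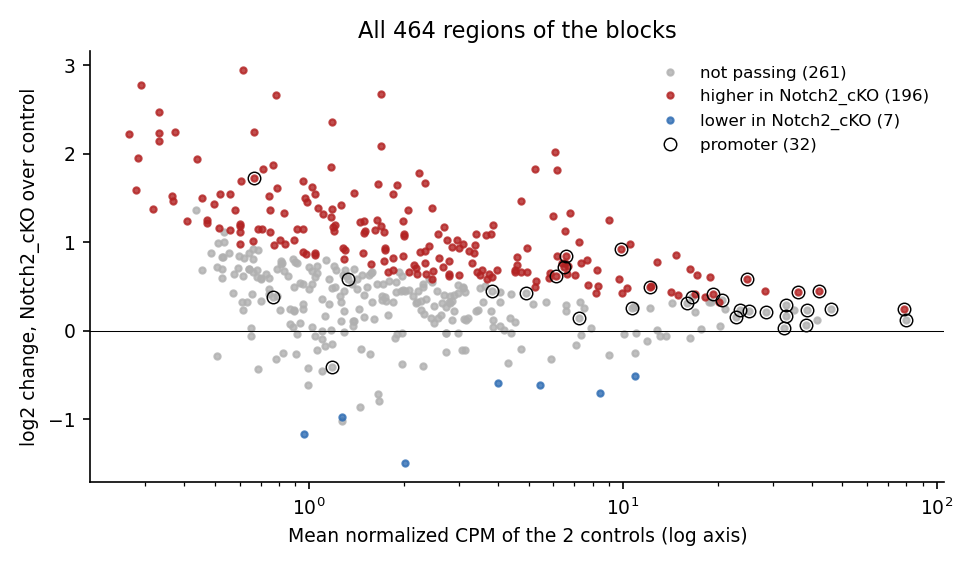
Log2 difference (Notch2_cKO over control) of each of the 464 regions against its mean normalized CPM in the 2 controls on a log axis, coloured by call, with the 32 promoters circled. Most points lie above 0 (409 of 464), the 196 called higher lie at all levels, and the promoters lie mostly at high levels with small differences.

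With all 4 libraries the 6 blocks had similar medians, but they differed in density and level. The median log2 difference was 0.64, 0.51, 0.49, 0.54, 0.56 and 0.55 in blocks 1 to 6. That of block 6 was 0.31 without Notch2_cKO replicate 1. Block 1 had 582 and 576 CPM in the controls and 872 and 800 CPM in Notch2_cKO, a ratio of means of 1.44. In block 2 the controls had 467 and 440 CPM and the Notch2_cKO libraries 628 and 584 CPM, a ratio of 1.34. The order of the libraries was the same in both blocks, with Notch2_cKO 1 the highest and control 2 the lowest. Block 3 had 200 and 188 against 278 and 267 CPM, and block 4 had 584 and 553 against 785 and 751 CPM. Block 5 had 242 and 223 against 330 and 315 CPM. In blocks 1 to 5 the genotypes were farther apart than the libraries within them. In block 6 the controls had 160 and 166 CPM and the Notch2_cKO libraries 222 and 185 CPM. The gap within Notch2_cKO there was wider than the gap from control 2 to Notch2_cKO 2.

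Regions called higher numbered 73, 33, 20, 39, 17 and 14 in blocks 1 to 6, and regions called lower numbered 1, 2, 1, 3, 0 and 0. Without control replicate 2 the higher counts were 46, 13, 11, 33, 10 and 11. They were 43, 16, 10, 33, 15 and 8 without Notch2_cKO replicate 1. Without control replicate 1 the counts were 54, 23, 13, 37, 16 and 10, so block 3 fell by over 1.5 times there too. Without Notch2_cKO replicate 2 the counts were 80, 37, 21, 48, 20 and 19. Both Notch2_cKO libraries lay above both controls in 116, 52, 35, 65, 32 and 30 regions. The blocks held between 3.51 (block 5) and 8.51 (block 6) regions per 100 kb. The 6 blocks together had 5.59, against 6.69 on the other 47.5 Mb of the chromosome from block 1 onward.

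**Figure D2:**
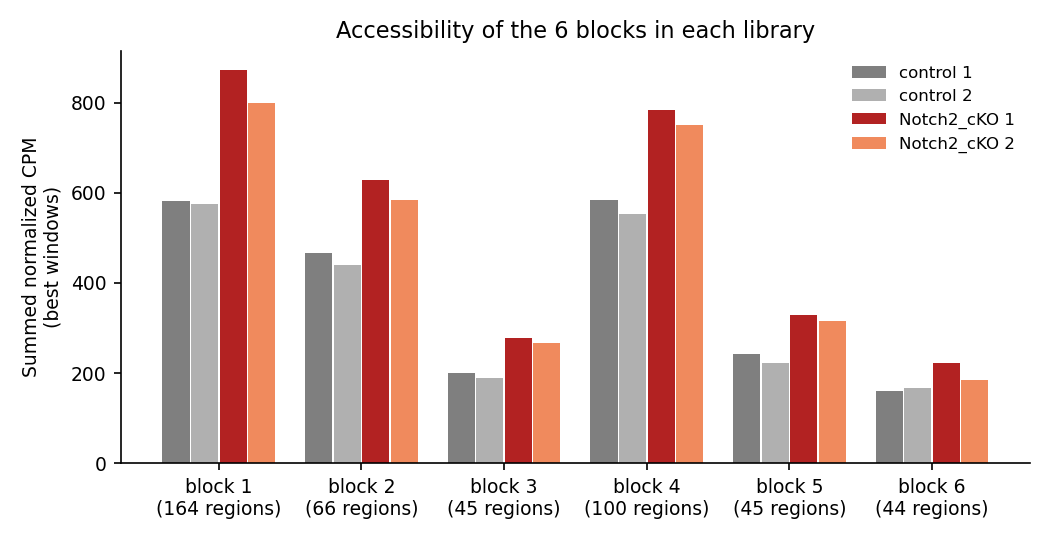
Bars show the summed normalized CPM of the regions of each block, with 1 bar for each of the 4 libraries. Both Notch2_cKO libraries lie above both controls in all 6 blocks, most closely in block 6, where the libraries had 160, 166, 222 and 185 CPM.

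The rest of chromosome 11 was described in the same way, as the blocks were picked for standing out on it. The 3177 regions from block 1 to the end of the chromosome but outside the blocks had a median log2 difference of 0.27 (quartiles 0.03 and 0.56), with 77.0% above 0. There, 630 (19.8%) were called higher and 85 (2.68%) lower. The 2966 regions before block 1 had a median of 0.13, with 17.2% called higher and 9.41% lower. The 99905 regions on other autosomes had a median of 0.00 (quartiles -0.30 and 0.30), with 12.2% higher and 11.5% lower. Chromosome 11 was also cut into bins of 1 Mb with at least 10 regions, and the regions of the blocks stayed in them. Of the 55 bins that begin after the start of block 1, 54 had a median above 0. Both Notch2_cKO libraries were above the control mean in 52 of them. In the 60 bins that begin before the start of block 1, these counts were 43 and 33. The bin at 66 Mb, with a median of 0.58, is among those 60 although block 1 begins in it. Since the bins hold the block regions too, they do not describe the chromosome outside the blocks. The 3177 regions outside the blocks do, and with a median of 0.27 they were shifted in the same direction. Medians of the other chromosomes ran from -0.09 to 0.06.

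**Figure D3:**
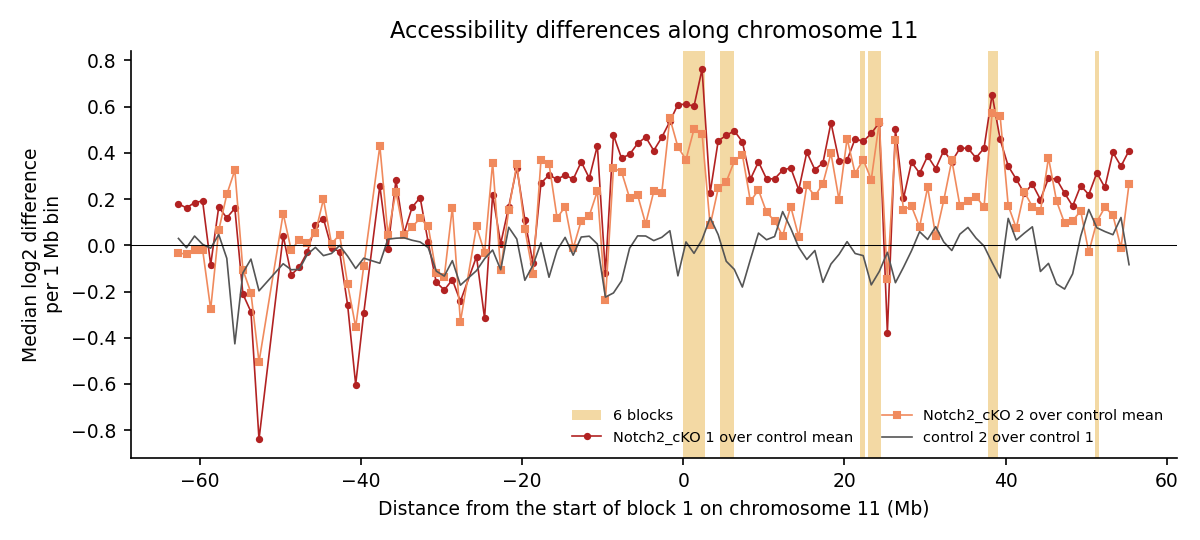
Median log2 difference of regions in 1 Mb bins along chromosome 11, by distance from the start of block 1 in Mb, for each Notch2_cKO library over the control mean and for control 2 over control 1, with the blocks shaded. Both Notch2_cKO lines lie above 0 in 52 of the 55 bins that begin after the start of block 1. The bins include the regions of the blocks, and the line within the controls crosses 0 repeatedly.

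Regions at gene starts differed less than the rest. The 32 regions at promoters had a median log2 difference of 0.33 (quartiles 0.22 and 0.46), and it was above 0 in 31 of them. Set against the control mean, the promoter median was 0.42 in Notch2_cKO 1 and 0.18 in Notch2_cKO 2. Without Notch2_cKO replicate 1 the fitted median was 0.19, so that library carried much of the value. With TMM scaling the promoter median was 0.30 in the blocks and -0.10 on other autosomes. The 244 regions inside protein-coding genes had a median of 0.61, and the 188 between such genes had 0.63. The promoters were also the brightest, with a median control level of 19.9 CPM against 1.90 and 1.58 CPM. Elsewhere on the chromosome from block 1 onward the medians were 0.20 at promoters, 0.30 inside genes and 0.30 between genes, and on other autosomes they were 0.00, 0.01 and -0.02. Promoters made up 6.90% of the 464 regions, 14.1% of the regions elsewhere on this stretch and 8.52% of those on other autosomes. Level and place were not separated here. Of the 464 regions, the 78 in the brightest 25% of all regions had a median of 0.39, against 0.65, 0.59 and 0.63 in the other level classes from dim to bright.

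**Figure D4:**
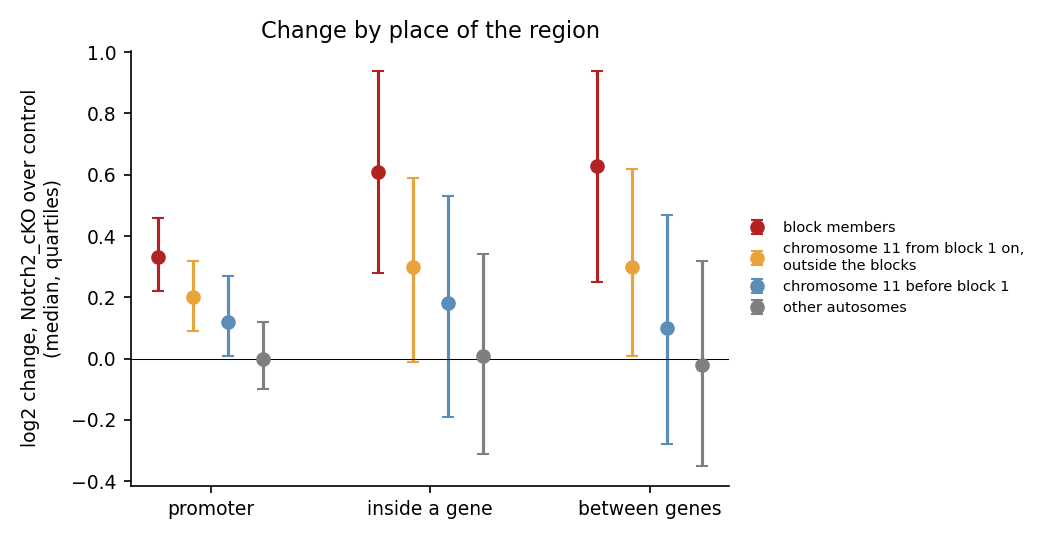
Log2 difference of regions at promoters, inside genes and between genes, for the 464 regions, chromosome 11 after and before the start of block 1, and the other autosomes. Points are medians and bars run between the quartiles. The medians of the 464 regions are 0.33, 0.61 and 0.63, and those of other autosomes lie within 0.02 of 0.

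Block 1 holds skeletal myosin genes, the guidance cue gene Ntn1 and Gas7, which encodes an actin-binding protein. The regions of a gene are here those inside it and those nearest to it within 100 kb. Gas7 had the most regions of any gene in the blocks. Its 33 regions summed to 133 and 127 CPM in the controls and 206 and 194 CPM in Notch2_cKO, and 28 of them had both Notch2_cKO libraries above both controls. The 14 regions of Ntn1, which encodes the secreted protein netrin-1, summed to 20.1 and 20.1 CPM in the controls and 49.2 and 37.9 CPM in Notch2_cKO. The region with the largest difference of block 1 lay in Ntn1, at chr11:68321251-68321900. It had 1.64 and 1.74 CPM in the controls and 11.7 and 9.61 CPM in Notch2_cKO (log2 2.67, SE 0.20). In 10 of the 14 regions of Ntn1 both Notch2_cKO libraries lay above both controls. Pik3r5, a regulatory subunit of phosphoinositide 3-kinase gamma, had 8 regions that summed to 31.4 and 28.3 CPM in the controls and 65.1 and 67.6 CPM in Notch2_cKO. The 8 regions assigned to Pirt, a regulator of TRP channels in sensory neurons, were singled out after their values were seen. Only 1 of them lies inside the gene. The 8 regions summed to 14.7 and 12.6 against 25.9 and 24.9 CPM, and in all 8 the genotypes did not overlap.

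Not every gene of block 1 followed. The 14 regions of Shisa6, an auxiliary subunit of glutamate receptors, summed to 42.6 and 43.6 CPM in the controls and 59.6 and 54.0 CPM in Notch2_cKO, yet their median log2 difference was 0.09 and only 5 had no overlap upward. The sum therefore rests on a few of the regions. In Stx8, which encodes a SNARE protein of endosomes, the region at chr11:68022901-68023300 had 1.00 and 0.917 CPM in the controls and 0.523 and 0.227 CPM in Notch2_cKO (log2 -1.17, SE 0.42). It was the lowest difference of the block.

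Block 2 holds 25 protein-coding genes, and its promoters were the most numerous, 16 of the 32. The brightest region, at the shared start of Derl2 (a factor that moves misfolded proteins out of the endoplasmic reticulum) and Mis12 (a kinetochore subunit), had 80.9 and 76.1 CPM in the controls and 93.2 and 93.3 CPM in Notch2_cKO (0.25, SE 0.08). The groups did not overlap with loess offsets, but the log2 difference was 0.01 when each library was scaled by 1 factor (median centring, TMM or DESeq2 size factors). With each of these 3 scalings promoters on other autosomes had a median of -0.10, against 0.00 with loess offsets. The value at this start thus depends on the scaling and is not taken as a difference. The largest difference lay inside Pitpnm3 at chr11:72099051-72099650, with 1.29 and 1.07 CPM in the controls and 6.67 and 5.17 CPM in Notch2_cKO (2.36, SE 0.23). The 11 regions of that gene summed to 23.9 and 20.2 against 43.7 and 34.5 CPM. The 3 regions of Slc13a5, a citrate transporter, summed to 11.2 and 9.87 CPM in the controls and 23.6 and 19.4 CPM in Notch2_cKO. All 3 had both Notch2_cKO libraries above both controls. In Nup88, a nuclear pore protein, the region at chr11:70952401-70953000 went the other way, with 2.00 and 2.03 CPM against 0.727 and 0.693 CPM (-1.49, SE 0.30). That is the lowest difference of all 464 regions.

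Block 3 is the shortest after block 6 and mostly holds Msi2, which encodes an RNA-binding protein of stem and progenitor cells. Its 26 regions summed to 97.5 and 85.9 CPM in the controls and to 137 and 137 CPM in Notch2_cKO, and 21 of them had no overlap upward. The largest difference within Msi2, at chr11:88424301-88424650, rests on few reads, with 0.201 and 0.333 CPM in the controls and 1.63 and 0.605 CPM in Notch2_cKO (2.22, SE 0.48). Without Notch2_cKO replicate 1 this log2 difference was 1.08. The brightest region of the gene had 37.0 and 33.2 against 40.8 and 42.3 CPM (0.24). Another region of Msi2, at chr11:88540051-88540500, was lower, with 1.29 and 1.24 CPM in the controls and 0.738 and 0.457 CPM in Notch2_cKO (-0.97, SE 0.35). The regions of 1 gene thus did not all move together. The 10 regions of Cuedc1 summed to 59.6 and 58.8 against 86.7 and 78.2 CPM.

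Block 4 had the largest difference of all 464 regions, 9535 bp from Hlf at chr11:90326701-90327300. It had 0.749 and 0.478 CPM in the controls and 4.91 and 4.40 CPM in Notch2_cKO (2.94, SE 0.27). A brighter region 6035 bp from Hlf, at chr11:90330151-90330850 and singled out after its values were seen, had 6.07 and 6.09 CPM against 24.6 and 24.9 CPM (2.02, SE 0.14). The control values of the first region rest on 17 and 12 counts. In the brighter region the libraries of each genotype lay close together. The start of Hlf itself differed by 0.24. The 15 regions assigned to Hlf summed to 117 and 120 CPM in the controls and 191 and 177 CPM in Notch2_cKO. Tmem100, a membrane protein known from the endothelium and singled out after its values were seen, had 14 regions, of which 2 lie inside it. These 14 summed to 30.3 and 24.0 against 51.3 and 54.6 CPM. The 9 regions assigned to Pctp, 1 of them inside the gene, summed to 28.4 and 27.2 against 45.4 and 38.0 CPM.

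The other genes of block 4 differed less. The 19 regions of Mmd summed to 188 and 183 CPM in the controls and 221 and 220 CPM in Notch2_cKO, while its start had 78.5 and 80.5 against 94.7 and 77.5 CPM. The start thus overlapped between the genotypes, and its log2 difference of 0.12 was -0.11 with TMM. The sum over its regions did not overlap. The 21 regions of Ankfn1 summed to 81.9 and 71.1 CPM in the controls and 91.8 and 81.9 CPM in Notch2_cKO, so control 1 and Notch2_cKO 2 were level. For Nog, which encodes the BMP antagonist noggin, the 5 nearest regions summed to 13.7 and 13.7 against 12.3 and 12.7 CPM. Of those 5, 2 had both Notch2_cKO libraries higher, and the region 57088 bp from Nog had 5.43 and 5.46 against 3.53 and 3.63 CPM (-0.61).

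Block 5 holds Mapt, which encodes the microtubule-binding protein tau, the integrin gene Itgb3 and Crhr1, a receptor for corticotropin-releasing hormone. The largest difference lay in Mapt at chr11:104307001-104307450, with 0.253 and 0.328 CPM in the controls and 1.99 and 2.07 CPM in Notch2_cKO (2.77, SE 0.36). The control values there rest on 6 and 8 counts. The 11 regions of Mapt summed to 59.4 and 54.7 against 89.7 and 86.2 CPM. The 6 regions of Itgb3 summed to 23.0 and 17.9 CPM in the controls and 35.8 and 33.7 CPM in Notch2_cKO, and the 5 of Crhr1 summed to 8.99 and 7.48 against 15.4 and 11.5 CPM. In all 3 genes control 2 was the lowest library. The brightest region of the block, at the start shared by Cdc27 (a subunit of the anaphase-promoting complex) and Myl4 (a myosin light chain), had 33.9 and 32.3 against 40.0 and 41.0 CPM (0.29, or 0.19 with TMM).

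Block 6 holds Septin9, a cytoskeletal GTPase, and Tnrc6c, a protein of microRNA silencing. The 24 regions of Septin9 summed to 80.2 and 82.9 CPM in the controls and 113 and 97.2 CPM in Notch2_cKO. The 11 regions of Tnrc6c summed to 51.6 and 55.4 against 72.4 and 60.1 CPM, and its start had 31.8 and 33.4 against 36.7 and 29.5 CPM (0.03, or -0.04 with TMM). Notch2_cKO 1 was the highest library in each, and Notch2_cKO 2 lay nearer the controls. The largest difference, at chr11:117479301-117479800, had no protein-coding gene within 100 kb. It had 0.648 and 0.884 CPM in the controls and 3.19 and 2.24 CPM in Notch2_cKO (1.87, SE 0.29).

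**Figure D5:**
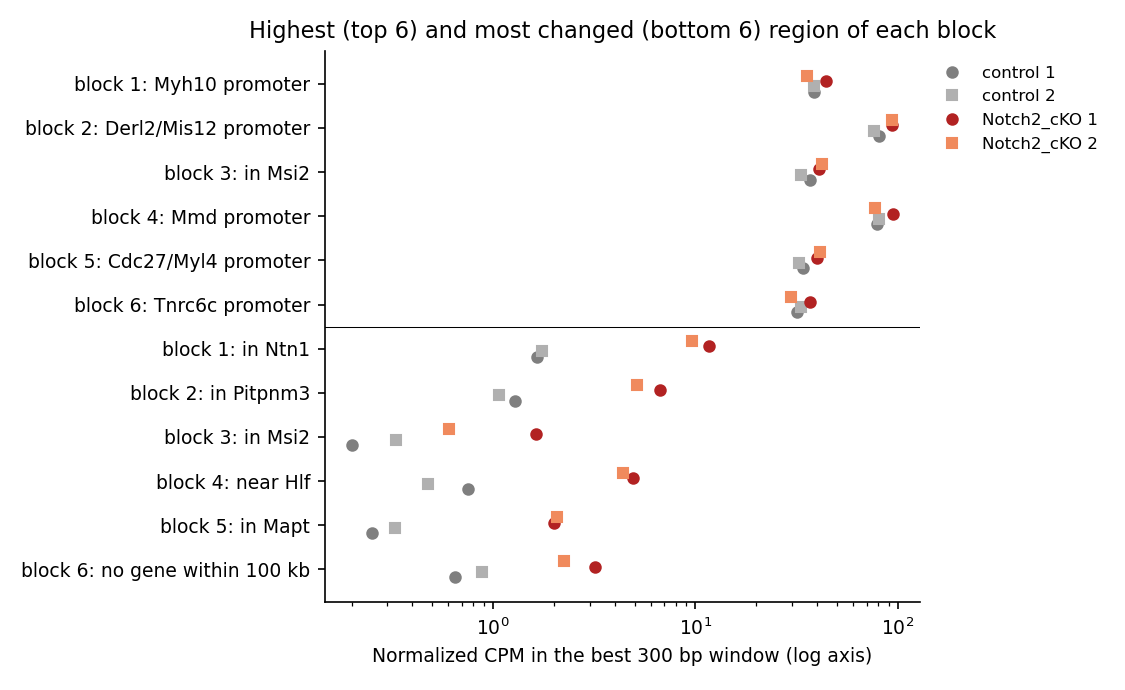
Normalized CPM in the 4 libraries, on a log axis, of the brightest region (top 6 rows) and of the region with the largest difference (bottom 6 rows) of each block. The libraries lie close together in the top rows, where the difference at the Myh10, Mmd and Tnrc6c starts changes sign with TMM scaling. With that scaling promoters on other autosomes had a median of -0.10. In the bottom rows both Notch2_cKO libraries lie above both controls, from 0.605 against 0.333 CPM in Msi2 to 9.61 against 1.74 CPM in Ntn1.

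The genes of the blocks were also grouped by what they encode. For these groups the regions of a gene are only those inside it or within 1000 bp of its ends. For comparison, 42.2% of the 464 regions were called higher and 1.51% lower, and 12.5% and 11.2% of all regions. Myosin and contractile genes had 47 regions at 7 of 10 genes, with 21 called higher, 0 lower and a median log2 difference of 0.53. This group is called myosins below, but Gas7, which encodes no myosin, gave most of it. In Gas7 or at its ends lay 31 of the 47 regions and 16 of the 21 called higher. Myh8, Myh4 and Myh2, heavy chains of skeletal muscle, had no region of their own. Genes listed as secreted signals and receptors had 34 regions at 5 of the 6 genes that lie in the blocks. Of these regions 17 were called higher and 0 lower, with a median of 0.66. Ntn1 gave 8 of the 17. Shisa6 and Itgb3, listed here in a wide sense of receptor, gave 4 and 3. With regions nearest to it within 100 kb counted too, Glp2r, the receptor for glucagon-like peptide 2, had 6 regions and a median of 0.43. In 3 of the 6 both Notch2_cKO libraries lay above both controls. The brightest of those inside the gene had 9.83 and 9.58 CPM in the controls and 15.5 and 13.3 CPM in Notch2_cKO (0.59, SE 0.15). Genes of RNA binding, chromatin and transcription had 52 regions, with 22 higher, 1 lower and a median of 0.51. Msi2 alone gave 25 of the 52 and 11 of the 22. Those of the cytoskeleton, cilia and vesicle transport had 70, with 22 higher, 3 lower and a median of 0.55. Innate and leukocyte genes had 21 regions, with 9 higher, 0 lower and a median of 0.49. Genes listed under metabolism and mitochondria had 12, with 6, 0 and 0.48. This list is mixed: Usp43, a deubiquitinase, gave 2 of the 6 higher regions, and Mettl2, a tRNA methyltransferase, gave 1. On other autosomes the median of all regions was 0.00. The medians of the 6 groups ran from 0.48 to 0.66, around the 0.59 of the 464 regions together.

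These counts of higher regions changed when a single library was left out. The share called higher over all regions moved in the same direction in each omission. The changes are therefore not read as particular to these groups. Without control replicate 2 they were 13 for myosins, 12 for secreted signals, 13 for RNA binding, 16 for the cytoskeleton, 7 for innate genes and 4 for metabolism. They were 15, 12, 13, 16, 7 and 5 in that order without Notch2_cKO replicate 1. Without control replicate 1 they were 14, 15, 14, 19, 8 and 3. Without Notch2_cKO replicate 2 they were 25, 17, 23, 32, 12 and 6. The median of the cytoskeleton group was 0.26 without Notch2_cKO replicate 1, against 0.55 with all libraries. The medians of all 6 groups were above 0 in each of the 4 omissions. The blocks were picked for this sign in the same libraries, so nothing is read from it.

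At their edges the blocks met neighbours of either sign. Before block 1, in the dynein gene Dnah9, the last region outside had a log2 difference of -0.81 and the first inside 0.31, and at the far end the values were 0.72 inside and 0.11 outside, at Rpl26. Block 2 began with 0.40 outside and 0.79 inside and ended with 0.38 inside and 0.24 outside. For block 3 the values were 0.31 and 1.36 at the start and -0.04 and 0.54 at the end. Block 4 began with -0.65 outside and 0.27 inside and ended with -0.51 inside and 0.28 outside. Block 5 had 0.22 and -0.32 at its start and 0.31 and 0.19 at its end, and block 6 had 0.53 and 0.44, then 1.37 and 0.28. The last region of block 4 and the first of block 5 were below 0, and the last of block 3 was close to 0.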

How the data were processed

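The authors deposited integer read counts per 300 bp window of mm10 for 4 ATAC-seq libraries. Trim Galore 0.6.7, Bowtie2 2.4.5, SAMtools 1.14 and Picard 2.27.5 were among the tools, per the submitters' processing notes. For the windows, the caller is not given in the sources used here. Per the labels the values are loess-normalized, but they were whole numbers with smooth histograms and unequal totals, and were treated as counts. In all, 678058 windows, 50 bp apart, were merged into 110110 regions where they lay within 100 bp. The window with most counts stood for each region. edgeR 4.0.16 (R 4.3.3) was run with loess offsets and its quasi-likelihood test, with Benjamini-Hochberg adjustment over all regions. The method was tested on simulated data. Genes and promoters came from RefSeq. A region was assigned to the protein-coding gene it overlapped or the nearest within 100 kb. Other genes were left out of this step, so between genes means between protein-coding genes. Named regions were those of largest, smallest and highest value in each block, its edges, the 3 genes with most regions and members of the gene lists. The blocks, gene lists and markers were chosen with earlier results of these data known. Alternatives were other scalings, filters, merging rules, DESeq2 1.42.0, limma 3.58.1, a replicate block and each library left out.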

Additional observations from a re-analysis of the deposited data

How the results depend on the processing

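The median log2 difference of the 464 regions was 0.59 and ranged from 0.46 to 0.60 when a library was left out. The count of higher regions was 196 and ranged from 124 to 225, and the count of lower regions was 7 and ranged from 1 to 7. DESeq2 called 102 higher and 1 lower, against 6.69% and 4.93% of all regions. At an adjusted p under 0.01 edgeR called 125 higher and 2 lower, against 7.74% and 6.39% of all regions. The lower count was 4 with a loess fit outside chromosome 11, and 4 of 299 with the lowest 25% of regions left out. Replicate numbers did not pair the samples (correlation of deviations -0.14). With the replicate block, 175 were higher and 7 lower, and with the crossed replicate block, added after seeing the data, 240 and 10. Of the 196 regions, 194 kept their sign and 85 their call in all 4 omissions. Of 28 named regions with a call, 10 kept it under every alternative that gave a value for them and none reversed. Scaling by 1 factor per library took the brightest starts down (Derl2 from 0.25 to 0.01). It also took the promoter median on other autosomes from 0.00 to -0.10. Block medians stayed between 0.31 (block 6 without Notch2_cKO replicate 1) and 0.66. With 2 pools per genotype, low-level regions are the least certain. The blocks were picked for their sign in these same libraries, so a kept sign is no support for them.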
